A study of Mus musculus with 6 samples.

Results

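The transcription factor gene Crem and the testis LIM-only genes Fhl4 and Fhl5 were followed in maps of N6-methyladenosine (m6A), a methyl mark on RNA, from male mouse germ cells. They were taken by gene name, and each gene had 1 peak in each of 2 tables: 3 of 24127 peaks in the comparison of ClpP cKO with WT, and 3 of 23681 in that of ClpX cKO with WT. All 3 genes were chosen with the measured values known, and Fhl4 was chosen by its log2 fold change and adjusted p in both tables, so the values below are a description and support nothing by themselves.

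The cells were labelled as spermatocytes of postnatal day 35, and came as WT, as a knockout of ClpP or as a knockout of ClpX. ClpP and ClpX form a protease of the mitochondrial matrix. Per the series' design text, each was deleted with Stra8-Cre, a driver active in male germ cells, and the study asked how mitochondria work in control and knockout cells. Whether the WT cells carried the Cre, how many animals were used and whether they were pooled was not given in the sources used here. m6A-seq captures methylated RNA with an antibody (the IP library) and sets it against uncaptured RNA (the input library). Each genotype had 1 IP and 1 input library, so no value has a replicate error and no test across animals can be made. Each comparison rests on 4 libraries, and both share the WT libraries. Depth is unknown, since the tables hold no read counts.

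CREM is a transcription factor of the cAMP pathway that switches on genes of the haploid germ cell, among them those for protamines and transition proteins. In the testis FHL5, also named ACT, binds CREM and activates it without the phosphorylation that CREM needs elsewhere, and the kinesin KIF17 carries FHL5 out of the nucleus. FHL4 is a LIM-only protein of the same family, built of zinc-binding LIM domains, and is made mainly in the testis. m6A is placed on many messenger RNAs of the male germ line and acts on their translation and decay.

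Markers fixed for the cell types were looked up first, as genes with at least 1 peak. Of 11 spermatocyte markers 8 had one in the ClpP table and 7 in the ClpX table; of 9 spermatid markers 8 and 9 did, of 7 spermatogonial markers 6 and 6, and of 7 Sertoli cell markers 6 and 6. Of 5 Leydig cell markers 2 had a peak in the ClpP table and 4 in the ClpX table, and of the immune and endothelial markers 0 and 1 of 4. A peak shows RNA with captured signal, not its level, so these counts do not tell which cell type the peaks of Crem, Fhl4 and Fhl5 came from. All 3 genes are known in the literature from spermatids, and the spermatocyte label does not say how many spermatids the cells held.

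Fhl4 carried a large, strongly supported peak that was lower in both knockouts. In the ClpP table it lay at chr10:85097541-85099332 on the minus strand (GRCm38), 1 unspliced block of 1792 bases, wider than 98.5% of the peaks of that table. The ClpX table placed it at chr10:85097601-85099422, 1822 bases, wider than 98.8%. The blocks shared 1732 bases, which is 96.7% of the ClpP peak and 95.1% of the ClpX peak. RefSeq places Fhl4 at 85097019 to 85102495, so the peak covered 32.7% (ClpP) and 33.3% (ClpX) of the gene span and ended 522 and 582 bases before its 3' end. No other peak of either table shared bases with it.

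In the authors' deposited table for ClpP, the Fhl4 peak had a fold enrichment of IP over input of 14.3, a single value for all 4 libraries, higher than that of 74.0% of peaks. Its support as a peak was near the top of the table, at rank 15 of 24127 by p. The log2 fold change of enrichment, knockout over WT, was -0.75 in the authors' deposited table, or 59.4% of the WT value (168% if the ratio is turned). The direction is read from the table naming the knockout before WT, and every direction below turns if the ratio was formed as WT over knockout. The p of this difference had a log10 of -434, the floor that 4 peaks of the table share, and the peak was called lower. A peak is called here where the authors' adjusted p is under 0.05, which compares the libraries and not the conditions.

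ClpX cKO gave the Fhl4 peak a smaller difference in the authors' deposited table, a log2 fold change of -0.48 or 71.8% of WT (139% if turned), with an adjusted p of 1e-100, and it was also called lower. Its fold enrichment there was 15.9, above that of 76.6% of peaks, and its rank by peak p was 10 of 23681. Despite these p values, the Fhl4 change was of ordinary size among called decreases for ClpP and a small one for ClpX. Of the peaks called lower, 57.8% had a larger drop than Fhl4 in the ClpP table and 94.8% in the ClpX table. The median over called decreases was -0.84 for ClpP and -1.3 for ClpX. Among the 2412 peaks nearest to Fhl4 in fold enrichment (12.8 to 16.1) in the ClpP table, 21.1% had a lower log2 fold change. Among 2367 such ClpX peaks (14.2 to 17.9) the share was 35.8%.

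The Fhl4 values of both comparisons differed by 0.27, and so did the medians of all peaks, -0.034 for ClpP and 0.239 for ClpX. Relative to its table's median the Fhl4 peak stood at -0.72 in each. Both comparisons use the same WT libraries, so this likeness is no independent repeat. The scaling between libraries was not given in the sources used here. The difference between the knockouts was not tested.

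Fhl5 carried a weakly supported peak at the very start of the gene, and it was called in neither comparison. The ClpP table placed it in 2 blocks of 7 and 169 bases between 25241944 and 25242876 on chromosome 4, minus strand. In the ClpX table it was 1 block of 118 bases, chr4:25242759-25242876, narrower than all but 0.291% of the peaks. Both ended at the same base, 24 bases before the RefSeq start of the gene (25199907 to 25242852). The 118 shared bases make up 67% of the ClpP peak and the whole of the ClpX peak. A long noncoding gene, LOC115489977, spans the same place, so the gene that the reads came from is uncertain unless they were counted by strand, which is not stated.

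The outer 74 bases of the Fhl5 peak lie in the RefSeq promoter window of 250 bases before to 50 after the start (GRCm38.p6), which allows a look for the m6A consensus there. Its commonest form, GGAC followed by A, C or T on the RNA strand, occurs 1 time in that stretch. It is printed here with 30 bases at chr4:25242857-25242886 (minus strand), the motif in capitals.
Fhl5: gtcagcacctggGGACCcaggcagaagtcc
The match begins 22 bases before the annotated start, so it is inside the peak but outside the annotated transcript. Of 32851 promoter windows, 21.3% hold such a match in the same stretch, and the match is a description, not a mapped site.

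The authors' deposited table for ClpP gave the Fhl5 peak a fold enrichment of 5.27 and a log2 fold change of 1.2, with p = 0.1 and an adjusted p of 0.27. For ClpX the authors' deposited table listed a fold enrichment of 3.2 and a log2 fold change of -0.39, with an adjusted p of 0.63. The latter became -0.63 relative to the median of all ClpX peaks and -1.1 relative to that of peaks of like fold enrichment. Neither value passed the threshold, and their signs differ. In size the ClpP value was above that of Fhl4, yet the peak ranked 12534 of 24127 by peak p and 21250 of 23681 in the ClpX table. Of 2412 ClpP peaks nearest in fold enrichment (4.58 to 6.07), 86.5% had a lower log2 fold change. Of 2367 such ClpX peaks (2.71 to 3.77), 15.8% did, and 24.1% of them were called higher.

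**Figure D1:**
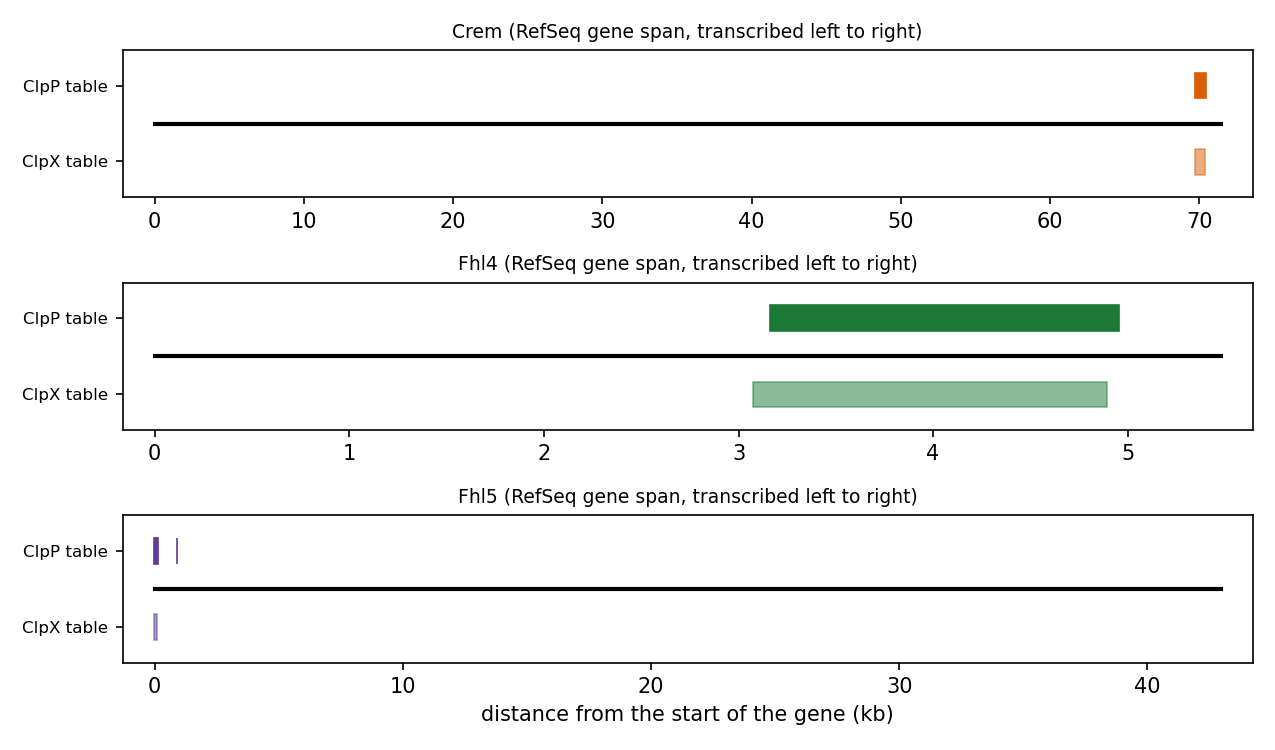
Position of the peaks along the RefSeq span of Crem, Fhl4 and Fhl5, as distance in kb from the start of the gene; boxes above the line are the blocks in the ClpP table and boxes below it those in the ClpX table. The Fhl4 peak covers 32.7% (ClpP) and 33.3% (ClpX) of its gene, the Crem peak lies near the 3' end and the Fhl5 peak at the start.

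Crem carried 1 highly enriched peak near the 3' end of the gene, higher in ClpP cKO and not called in ClpX cKO. In the ClpP table it lay at 3267335 to 3268082 on chromosome 18, minus strand, 748 bases in 1 block. The ClpX table placed it at 3267364 to 3268082, 719 bases, all of them shared with the ClpP peak. RefSeq places Crem at 3266354 to 3337773, a span of 71420 bases, so the peak lay 69691 bases from the start and ended 981 (ClpP) or 1010 (ClpX) bases before the 3' end. Crem makes activator and repressor isoforms, including ICER, from several starts and by splicing. The tables give 1 peak per site, so the isoforms behind it cannot be told apart.

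In the authors' deposited table for ClpP the fold enrichment of the Crem peak was 34.8, higher than that of 96.3% of peaks and the highest of the 3 genes. The log2 fold change was 0.65 in the authors' deposited table, or 1.57 times WT (0.639 times if the ratio is turned), with p = 0.00095 and an adjusted p of 0.0074, so the peak was called higher. This was a small change among increases: 12.2% of the peaks called higher had a smaller one, and the median over them was 1.32. Few peaks as enriched as Crem were called higher. Among the 2412 nearest in fold enrichment (22.2 to 54.4), 2.99% were called higher and 12.1% lower, and their median log2 fold change was -0.2.

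In ClpX cKO the Crem peak was not called. The authors' deposited table gave a fold enrichment of 19.2 and a log2 fold change of -0.15, or 89.9% of WT (111% if turned), with an adjusted p of 0.52. The log2 value depended on the reference, at -0.39 relative to the median of all peaks and 0.03 relative to that of peaks of like fold enrichment. Of the 2367 peaks nearest in fold enrichment (16.4 to 22.5), 51.2% had a lower log2 fold change, so Crem lay in the middle of them. The ClpX value minus the ClpP value was -0.80 on the log2 scale, while the same difference between the table medians was 0.27. A p that misses the threshold does not show that the Crem peak was the same in ClpX cKO and WT, and the difference between the knockouts was not tested.

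**Figure D2:**
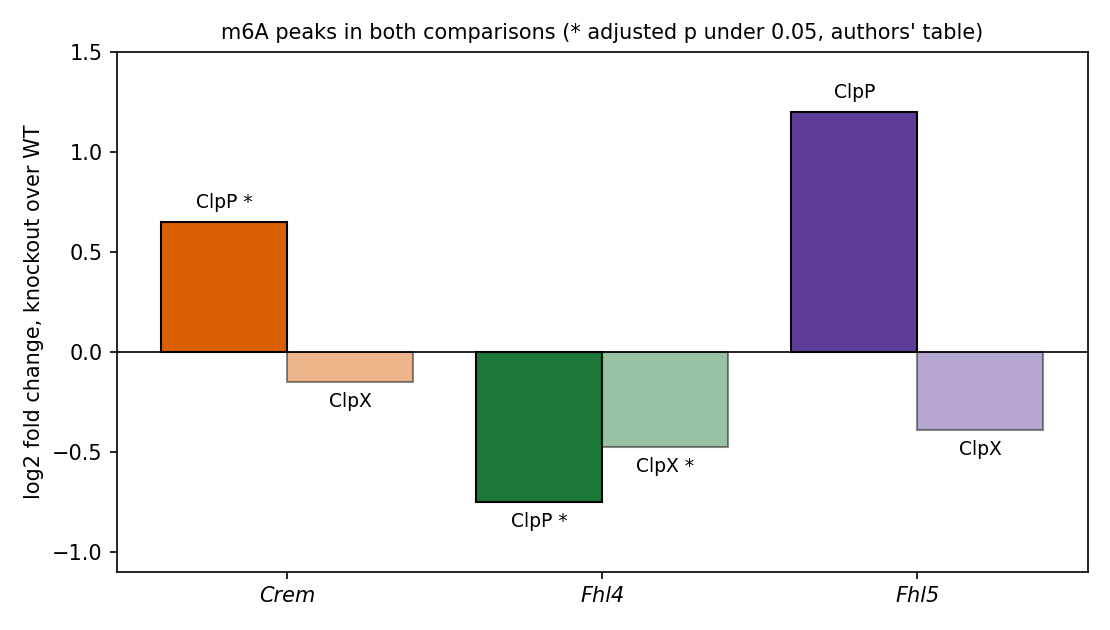
Log2 fold change of m6A enrichment, knockout over WT, for the peaks of Crem, Fhl4 and Fhl5; dark bars are ClpP cKO and pale bars ClpX cKO, each from 1 set of libraries with no error bar, and an asterisk marks an adjusted p under 0.05. Fhl4 is below 0 in both (-0.75 and -0.48), while Crem (0.65 and -0.15) and Fhl5 (1.2 and -0.39) have opposite signs.

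Side by side, ClpP cKO had 2 of 3 peaks called, 1 higher (Crem) and 1 lower (Fhl4), where 19.6% of all peaks were called, 6.74% higher and 12.8% lower. ClpX cKO had 1 of 3 called, Fhl4, where 20.1% of all peaks were called, 15.1% higher and 5.0% lower. Since the genes were chosen with these calls known, nothing is read from these shares.

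**Figure D3:**
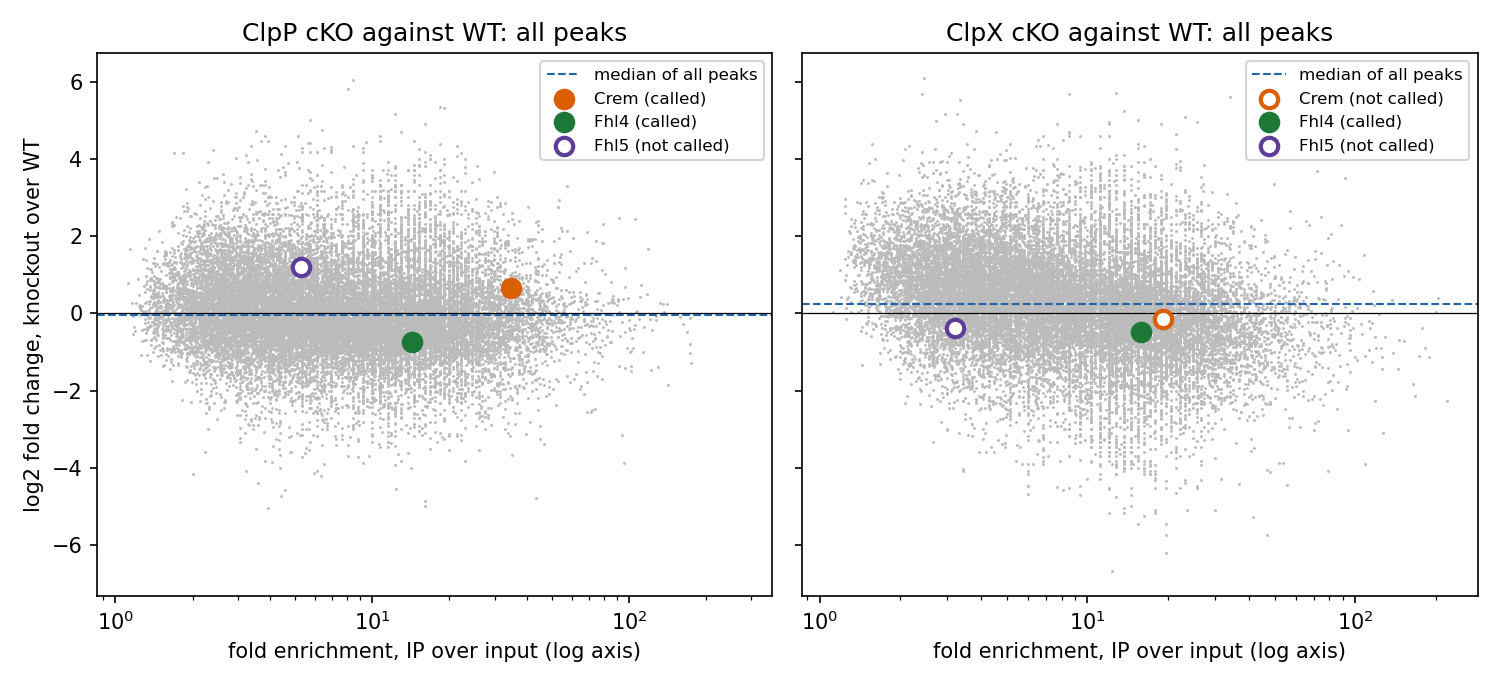
Log2 fold change (knockout over WT) against fold enrichment (IP over input, log axis) of every peak, 24127 for ClpP cKO and 23681 for ClpX cKO; coloured circles are Crem, Fhl4 and Fhl5, filled where called, and the dashed line is the median of all peaks (-0.034 and 0.239). Crem stands at a fold enrichment of 34.8 in the ClpP table and 19.2 in the ClpX table, while Fhl5 is at 5.27 and 3.2.

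The rest of the four-and-a-half-LIM family was scarcely seen. Fhl1 and Fhl2 had 0 peaks in either table. Fhl3 had 0 in the ClpP table and 1 in the ClpX table, at chr4:124707844-124708286. The authors' deposited table listed it at -1.84 with an adjusted p of 0.39, so it was not called. A gene with no listed peak may be unmethylated, unexpressed or too shallowly covered, which cannot be told apart here.

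Genes whose values lay nearest to those of Fhl4 and Crem were found by distance over both log2 fold changes, each gene by its peak of highest fold enrichment. With 2 points per gene such likeness is loose: 50 of 9684 other genes lay within 0.1 of Fhl4 and 28 within 0.1 of Crem. The nearest to Fhl4 were Usp15 (-0.74 for ClpP and -0.46 for ClpX, distance 0.014), Tti1 (-0.77 and -0.48, distance 0.016) and Vapb (-0.77 and -0.48, distance 0.017) in the authors' deposited table. Usp15 is a deubiquitinase, Tti1 a co-chaperone of mTOR-related kinases and Vapb a protein of the endoplasmic reticulum membrane. Of these Tti1 was called in both comparisons, with adjusted p of 1.3e-11 and 0.0011, and Usp15 in that of ClpP alone, with 2.1e-05. The nearest to Crem were Zfp36l2 (0.66 and -0.15), Terb1 (0.65 and -0.18) and Fam71b (0.63 and -0.17) in the authors' deposited table, and none of these 3 peaks was called in either. Zfp36l2 binds AU-rich RNA and promotes its decay, and Terb1 ties telomeres to the nuclear envelope in meiosis.

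Wider gene lists were described by the peak of smallest p per gene, where 28.8% of all genes were called for ClpP (9.5% higher, 19.3% lower) and 29.3% for ClpX (21.7% higher, 7.58% lower). The median over all genes was -0.158 for ClpP and 0.363 for ClpX. Of 60 LIM-domain genes, 22 had a peak in the ClpP table, 1 called higher and 4 lower, and their median was -0.15 on the log2 scale. The share called, 22.7%, lies below that of all genes, and by the peak of highest fold enrichment, or at an adjusted p under 0.01, 3 were called in place of 5. Besides Fhl4, the authors' deposited table gave -0.69 for Limd2, -0.94 for Mical2, an oxidase of actin, and -1.67 for Tes, a focal adhesion protein, all called lower, and 2.42 for Lmo4, a LIM-only transcription cofactor, called higher. The ClpX table held 26 of the 60, 6 called higher and 2 lower, and their median was 0.9. By the peak of highest fold enrichment 2 were called each way, and at an adjusted p under 0.01 it was 3 higher and 1 lower. Limk2, a kinase of cofilin, was called lower beside Fhl4 at -1.44 in the authors' deposited table, while its relative Limk1 was called higher at 3.92. The other increases there were Limd2 at 1.62, Csrp1 at 1.88, the adhesion scaffold Pxn at 1.46, Limd1 at 0.90 and Lpp at 1.59 in the authors' deposited table. All of these but Limd1 (4.61) had a fold enrichment under 3, and the peaks of Limd2 in both tables and of Tes overlap another gene's peak.

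Relatives and partners of CREM were called about as often as all genes, 33.3% of those with a peak for ClpP and 36.0% for ClpX, beside 28.8% and 29.3%. Of 29 genes of the CREB/ATF family and its co-activators, Crem and Fhl5 included, 24 had a peak in the ClpP table, 3 called higher and 5 lower (median -0.16), and by the peak of highest fold enrichment 1 and 3. The 25 with a peak in the ClpX table held 9 called higher and 0 lower (median 0.7), where 21.7% and 7.58% of all genes were called; by the peak of highest fold enrichment 6 were higher and 0 lower. The co-activators Crebbp and Ep300, which acetylate histones, were called lower for ClpP at -1.19 and -0.53 and higher for ClpX at 0.78 and 3.57 in the authors' deposited table, but from different sites of each gene. Gtf2a1l, a testis form of TFIIA, was called at the same site in both, at -0.35 for ClpP and 1.19 for ClpX in the authors' deposited table.

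Kif17, the kinesin that moves FHL5, had -0.24 for ClpP (adjusted p 0.39) and 1.71 for ClpX (adjusted p 6.3e-18) in the authors' deposited table, a called increase in ClpX cKO alone. Whether both Kif17 values come from the same site was not checked. Of the direct relatives of CREM, Atf1 was called lower for ClpP at -0.92 and Creb1 was not called, at -0.36 and -0.25, in the authors' deposited table. Atf2 at 2.68 and the testis factor Creb3l4 at 1.36 were called higher for ClpP, and Taf4b at -0.96 lower, in the authors' deposited table. Atf4, a factor of the stress response, was called higher for ClpX at 1.65, and Creb3l1 at 5.68, in the authors' deposited table. The Creb3l1 and Ep300 peaks of the ClpX table were weakly enriched, at 2.42 and 1.98. So were the Atf2, Creb3l4 and Taf4b peaks of the ClpP table, at 2.58, 2.3 and 2.92.

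Spermatid genes listed as known or likely targets of CREM were called both ways. Of 18 such genes 15 had a peak in the ClpP table, 3 called higher and 7 lower (median -0.07), and 16 in the ClpX table, 7 higher and 2 lower (median 0.58). The share called, 66.7% and 56.2%, stands beside 28.8% and 29.3% of all genes. By the peak of highest fold enrichment 1 was higher and 7 lower for ClpP. The list was drawn up with earlier results of these data known, and the part that read depth on these transcripts has in the calls was not tested. Ldhc, the lactate dehydrogenase of the germ line, and Pgk2, its phosphoglycerate kinase, were called lower in both, Ldhc at -1.1 and -1.04 and Pgk2 at -0.81 and -0.32 in the authors' deposited table. The chaperone gene Hspa1l at -0.79, the sheath gene Akap4 at -0.20, the linker histone gene Hils1 at -0.33 and Tcp11 at -1.08 were called lower for ClpP in the authors' deposited table.

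By its peak of smallest p, no protamine or transition protein gene of the list was called lower in either table. Prm1, for a protamine, was called higher in both comparisons at 1.29 and 0.53, and Tnp1, for a transition protein, at 0.29 and 0.62, in the authors' deposited table. The ClpP peak of Prm1 was weakly enriched, at 1.73, and without peaks of a fold enrichment under 2 the targets called higher for ClpP were 2 in place of 3. Prm2 at 1.11 and Tnp2 at 0.94 were called higher for ClpX, where ClpP gave -0.07 and 0.21 without a call, in the authors' deposited table. Smcp, of the mitochondrial capsule of sperm, was called higher at 0.34 and 1.11, and the acrosin gene Acr was called higher for ClpX at 1.56, in the authors' deposited table. Tcp11 was called higher for ClpX at 1.30, at another site than in the ClpP table. The Prm1 sites of both tables also differ, and the Tnp1, Hspa1l and Tcp11 peaks of the ClpP table overlap another gene's peak. Whether both Tnp1 values come from the same site was not checked. For ClpX the Prm2 and Prm1 peaks span chr16:10791380-10795985 and chr16:10796646-10805782. Both spans reach upstream past the RefSeq promoter windows of these minus-strand genes, which end at 10792355 and 10797073. How much of the signal came from outside these genes was not tested.

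CREM binds the cAMP response element, so its letters were searched in the RefSeq promoter windows (GRCm38.p6, 300 bases, both strands). The full element TGACGTCA was in 1.79% of 32851 windows and the half-site TGACG, which the full element contains, in 20.8%. Neither was found in the 3 windows of Fhl4 and Fhl5, which says only that these letters are not there. The promoter of Crem itself was not searched, so the result does not cover that gene. Of 15 CREM target genes with a window, 5 held a half-site (5 of 21 windows) and 0 the full element. Those of 3 genes called for ClpP are printed with the half-site in capitals, at chr7:46861190-46861219 (plus strand), chr17:34972620-34972649 (plus) and chr17:28079800-28079829 (minus).
Ldhc: gggcttgcgtgcTGACGttgactttgtgac
Hspa1l: gggcgtgtccggTGACGtgatcctctccaa
Tcp11: atggatttcctgTGACGctggacagttagt
They begin 61, 71 and 53 bases before an annotated start of each gene, and Ldhc has another 47 bases before the same start. Ldhc and Tcp11 have further annotated starts whose windows held no half-site. The Tcp11 half-site lies downstream of the other Tcp11 starts. The share of windows with a half-site is near that of all promoters, and binding was not measured.

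Genes of cAMP signalling that were called in ClpP cKO were mostly lower, as were the called genes of the whole table. Akap4, called lower for ClpP, is both in this list and in that of CREM targets. Of 34 such genes 28 had a peak in the ClpP table, 2 called higher and 10 lower (median -0.21). These are 7.14% and 35.7%, against 9.5% and 19.3% of all genes. The ClpX table held 27, with 5 called each way (median 0.11), and 4 higher and 2 lower at an adjusted p under 0.01. The 5 each way are 18.5%, against 21.7% of all genes called higher and 7.58% lower. Phosphodiesterase genes, whose products break down cAMP or cGMP, were called lower in both tables at Pde3b (-0.91 and -1.27), Pde7a (-0.59 and -0.55) and Pde1a (-1.28 and -1.71) in the authors' deposited table. Pde4b was called lower at -0.96 and -1.87, and Pde1c higher at 1.2 and 1.07, as was the G protein gene Gnas at 0.98 and 2.34, in the authors' deposited table; the Gnas peak overlaps another gene's peak. Adcy10, the soluble adenylyl cyclase that sperm need to move, was called lower at -0.83 and -1.51 (adjusted p 0.034 and 0.02) in the authors' deposited table. Whether the Pde4b and Adcy10 sites are the same in both comparisons was not checked. The anchoring protein gene Akap3 was called lower for ClpP at -0.87 and higher for ClpX at 0.53, from different sites, and Akap1 lower for ClpP at -0.48, in the authors' deposited table. Increases for ClpX were also called for Pde8a at 1.89 and the adenylyl cyclase Adcy3 at 1.96 in the authors' deposited table.

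**Figure D4:**
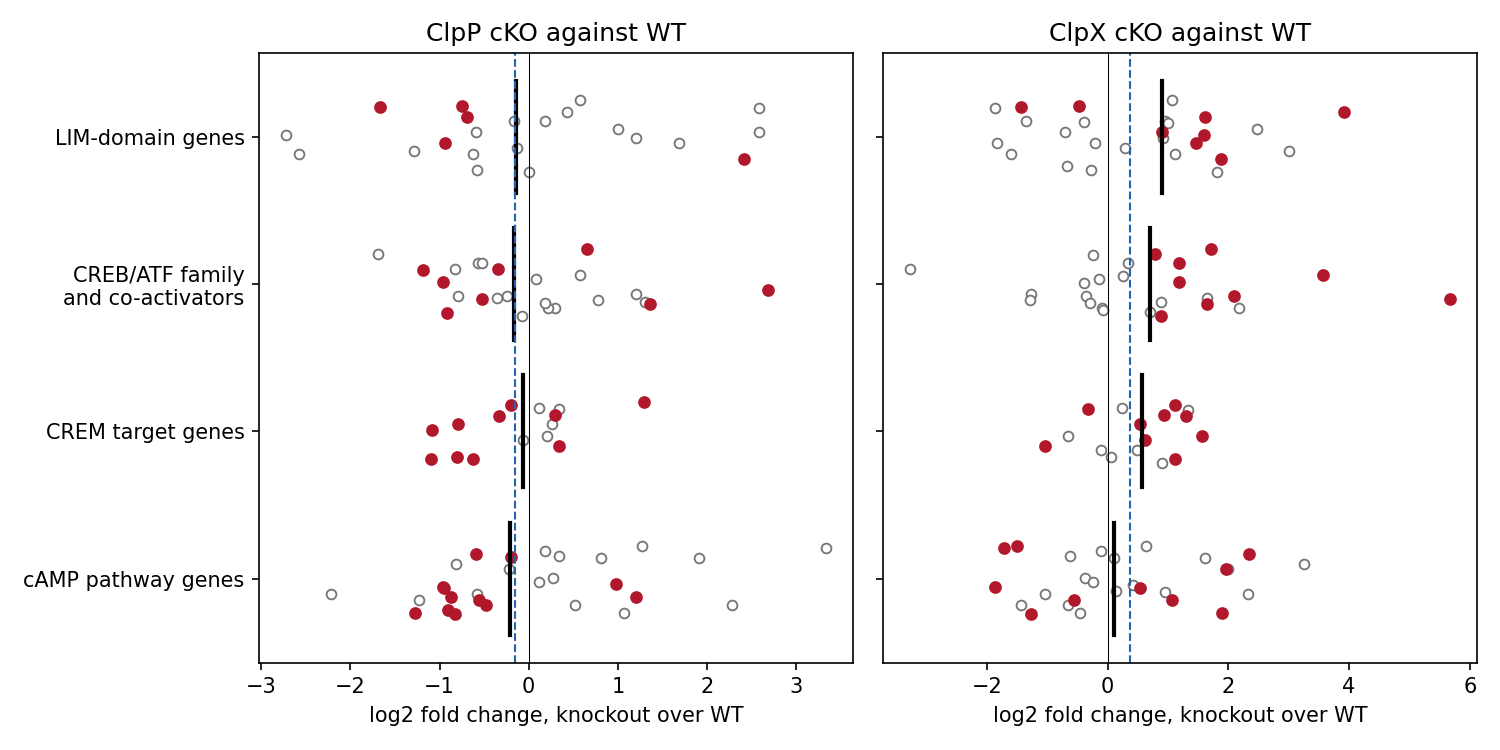
Log2 fold change (knockout over WT) of every gene with a peak in the 4 lists, by the peak of smallest p per gene; red points are called, open points are not, the black bar is the median of the list and the dashed line the median of all genes (-0.158 for ClpP, 0.363 for ClpX). The medians for ClpP lie between -0.21 and -0.07 and those for ClpX between 0.11 and 0.9.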

How the data were processed

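The m6A-seq data were 2 tables in which the authors compared ClpP cKO and ClpX cKO with WT, with 1 IP and 1 input library per genotype. Coordinates are on GRCm38 (mm10), as named in the submitters' processing notes. Aligner, peak caller and depth scaling were not given in the sources used here. For each peak, per the file headers, the table has a p-value, scores that are the log10 of p and of adjusted p, a fold enrichment (a linear ratio of IP over input) and a log2 fold change of the difference. The deposited adjusted p-values lay within 0.05 (log10) of a Benjamini-Hochberg adjustment in 99.39% (ClpP) and 99.32% (ClpX) of peaks. Peaks with the most extreme p of the difference, among them the Fhl4 peak for ClpP, were left out of this share. Adjusted p-values printed are the authors', over the whole table.

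The members and lists were chosen with earlier results of these data known. Named genes were the 3 members, up to 6 called genes per list and direction by adjusted p, and the 3 nearest genes by likeness, leaving out predicted genes. Genes named beside these (Adcy10 and Pde4b for ClpP, Tnp1 for ClpX, Creb1, and uncalled values of genes called in the other table) were added after their values were seen. For these added values, whether the site was the same in both comparisons was not checked. Peaks nearest in fold enrichment are the nearest 10% of the table on a log scale. RefSeq gave gene spans and promoter windows, matched by symbol. Windows on chromosome 18, which holds Crem, were left out of all promoter counts, so 2 of 3 members had a window. Calculations used Python 3.11.15 and pandas 2.3.3, with the adjustment and the choice of peak per gene tested on simulated data.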

Additional observations from a re-analysis of the deposited data

Results flagged for a closer look

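The Crem peak had log2 fold changes of 0.65 in ClpP cKO and -0.15 in ClpX cKO, and the Fhl5 peak 1.2 and -0.39, so the signs of each differ between the knockouts. The difference between the knockouts was not tested, each side has 1 set of libraries, and the Crem value for ClpP was the only 1 of these 4 that was called.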

How the results depend on the processing

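The calls of Crem, Fhl4 and Fhl5 (2 for ClpP, 1 for ClpX) were the same in number at an adjusted p under 0.01, under 0.1 and with the adjustment recomputed, and all 3 peaks paired between tables also at an overlap of 50% of each peak. With the table median subtracted, the ClpX log2 fold changes became -0.39 (Crem), -0.72 (Fhl4) and -0.63 (Fhl5). With the median of peaks nearest in fold enrichment subtracted, Crem became 0.85 for ClpP and 0.03 for ClpX, Fhl5 1.18 for ClpP and -1.1 for ClpX, and Fhl4 -0.70 and -0.40. Taking each gene's peak of highest fold enrichment left 3 called LIM-domain genes for ClpP, 4 for ClpX, and 4 CREB/ATF genes for ClpP; an adjusted p under 0.01 left 3 and 4 LIM-domain genes and 6 cAMP pathway genes for ClpX. The other 26 of 32 totals of called genes per list stayed within 1.5 times. In each of the 8 list results a total could not move, since subtracting the table median changes only directions and not calls. Some counts by direction moved further. For example, CREM targets called higher for ClpP went from 3 to 1 by the peak of highest fold enrichment. The cAMP pathway genes called lower for ClpX went from 5 to 2 at an adjusted p under 0.01. No paired analysis was possible because each group held 1 library, and no replicate could be left out. The unknown depth and the single libraries limit every value.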
